A study of Homo sapiens with 8 samples.

Results

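The 39 genes described here are genes of mesenchymal and contractile identity other than the collagens, and they were taken by name from the 58721 gene rows of every count file through GENCODE release 29. All 39 were found. 35 of them had enough reads to be tested, and the other 4, MEOX1, MEOX2, MYL9 and ANXA1, had too few. The members fall into 7 roles: transcription factors and a coregulator, secreted matrix and growth factor binding proteins, lysyl oxidases, matrix proteolysis, contractile proteins, S100 proteins and annexins, and surface, caveolar and galectin genes.

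Neuroblastoma is a childhood tumour of the sympathetic nervous system lineage. Its cells are known to occupy an adrenergic state, with HAND2 and GATA3 among its regulators, or a mesenchymal state marked by PRRX1, fibronectin, CD44 and matrix and cytoskeletal genes, and cultures can hold either or a mixture. Mesenchymal cells in general make and remodel extracellular matrix, bind it through integrins and CD44, and contract through actin, tropomyosin and calponin. PRMT5 is the main enzyme that places symmetric dimethyl groups on arginines of histones, splicing factors and other proteins.

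The study treated 2 human neuroblastoma cell lines for 6 days with the solvent DMSO or with a PRMT5 inhibitor and sequenced the messenger RNA. CHLA-20 grew in IMEM with serum and an insulin, transferrin and selenite supplement, and NGP in RPMI1640 with serum, so line and medium cannot be told apart. Sample names call the inhibitor JSK591, while the treatment text calls it GSK591, and gives its dose as an IC50 without a concentration. Each of the 4 groups (CHLA-20 DMSO, CHLA-20 JSK591, NGP DMSO, NGP JSK591) had 2 libraries. The labels do not say whether replicates are separate cultures. The p-values therefore reflect spread among these libraries alone, possibly technical spread.

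The libraries held 33188542 to 34914902 counts in genes, and 3 counts correspond to 0.0859 to 0.0904 CPM, counts in each 1000000 gene counts. Replicates differed by more than sampling noise, by chi-square values over their degrees of freedom: 2.046 to 3.106 for replicates, 19.9 to 27.88 for treatments of a line and 236.6 to 269.5 for lines. The labels name no batch, date or lane. The label mesenchymal was checked against a list of adrenergic genes, whose summed level was 5680 to 5852 CPM in CHLA-20 DMSO and 3356 to 3539 CPM in NGP DMSO. The sum of the 39 mesenchymal genes was 1598 to 1615 CPM and 1219 to 1236 CPM. Adrenergic TH, the rate-limiting enzyme of catecholamine synthesis, was at 1381 CPM in CHLA-20 DMSO and 0.762 CPM in NGP DMSO. TH led the list in CHLA-20 DMSO, and PHOX2A led it in NGP DMSO at 740 CPM. By the edgeR test described below, 5 of 21 tested adrenergic genes were higher and 16 lower in NGP DMSO. Of all genes tested, 36.6% were higher and 38.9% lower. Of 10 fibroblast markers, the summed level ran from 499 to 505 CPM in CHLA-20 DMSO, 441 to 454 CPM in CHLA-20 JSK591, 230.1 to 231 CPM in NGP DMSO and 248 to 249.99 CPM in NGP JSK591. LUM led in CHLA-20 and PDGFRA in NGP, and FAP and PDPN were at 0 in NGP JSK591. Of 10 Schwann cell markers, the sum ran from 25.8 to 26.4, 21.2 to 22.0, 129.9 to 137 and 111.1 to 112.6 CPM in the same order. PMP22 alone made up most of each sum, with means of 19.9, 16.6, 129.65 and 108.4 CPM. SOX10 was at 0.148 CPM or less in every group. The part of any such cells in the results was not tested.

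Levels are given as CPM on library sizes scaled by TMM, and a change is the log2 ratio with its standard error from edgeR's quasi-likelihood test, which adjusts p by Benjamini-Hochberg over all 19395 genes tested, with a threshold of 0.05. In these bulk samples fewer cells of a type and less RNA per cell cannot be told apart. Between genes, levels are compared per kilobase of exon. On that scale the galectin LGALS1 stood at 258 ± 0.65 CPM per kilobase (SD, n = 2) in CHLA-20 DMSO, followed by PRRX2 at 75.9 ± 4.6, S100A6 at 52.3 ± 4.1, ITGB1 at 42.1 ± 0.74 and MMP2 at 32.7 ± 0.77. In NGP DMSO the leaders were SPARC at 43.4 ± 2.1, MMP2 at 35.5 ± 0.16, ITGB1 at 30.3 ± 0.15, IGFBP5 at 19.5 ± 0.061 and TIMP1 at 17.0 ± 0.65. MMP2, a secreted gelatinase, and ITGB1, the integrin beta chain shared by most matrix receptors, were among the 5 leading genes in both lines. The line comparison below uses the same DMSO libraries as the treatment comparisons.

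**Figure D1:**
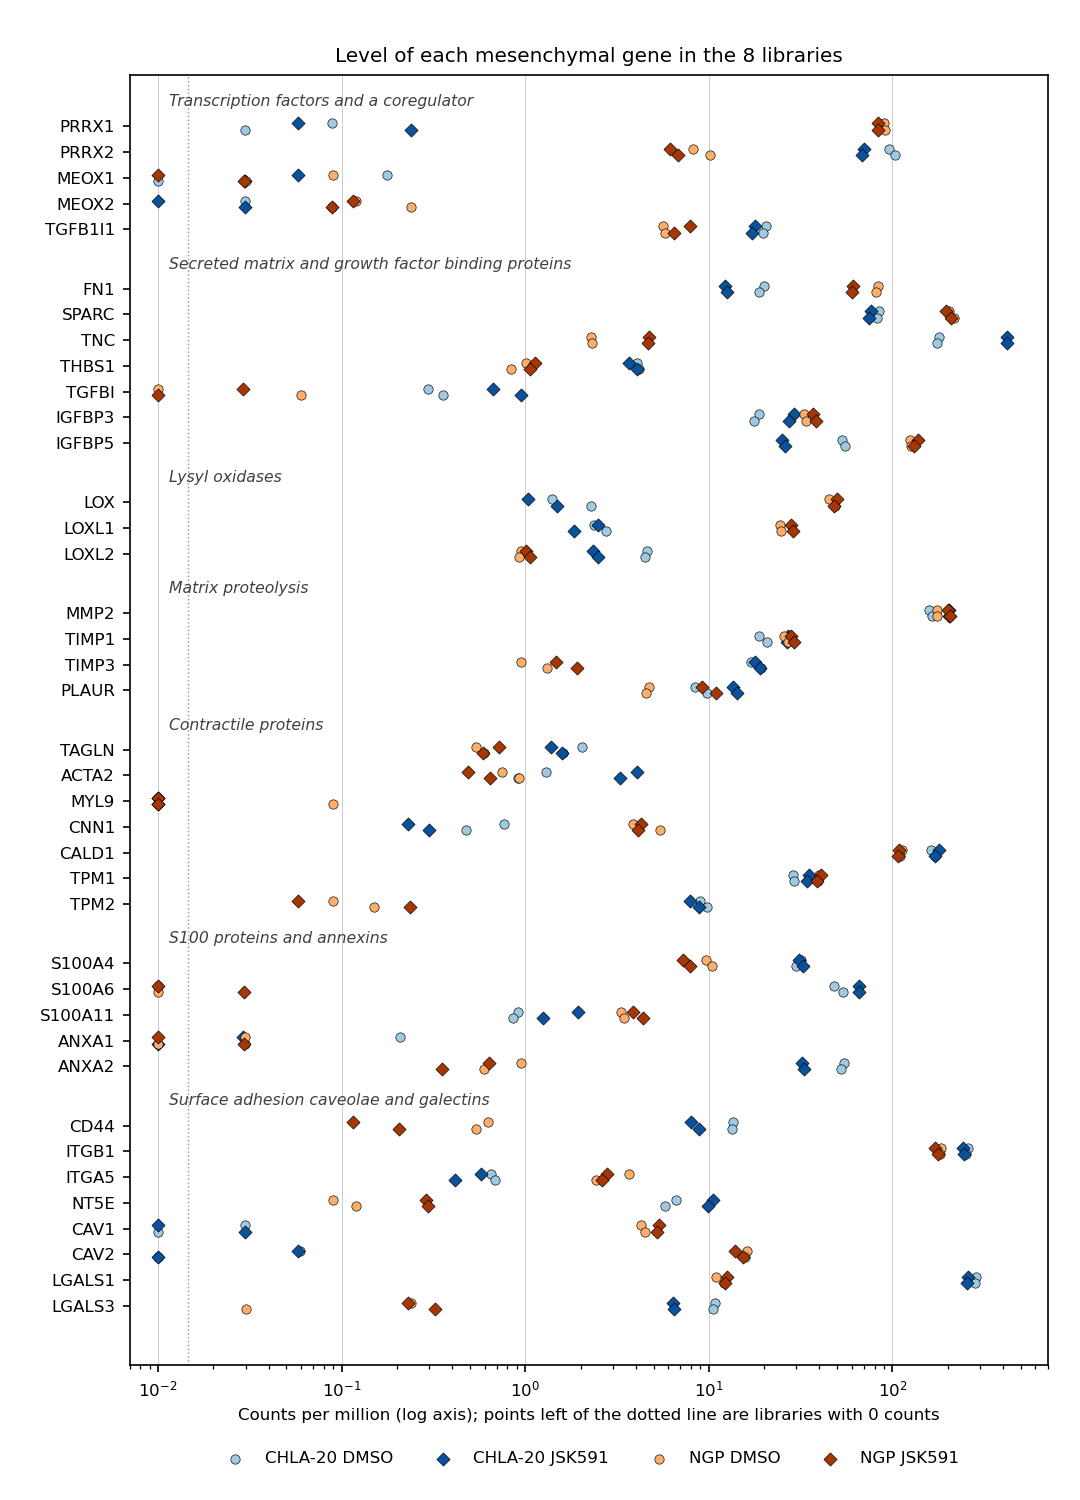
Level of each of the 39 genes in CPM on a log axis, with 1 point per library, circles for DMSO, diamonds for JSK591, blue for CHLA-20 and orange for NGP. Points left of the dotted line had 0 counts. PRRX1, CAV1 and CAV2 lie far to the right in NGP, and S100A6, ANXA2, LGALS3 and TPM2 in CHLA-20.

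The 2 lines differed in nearly all of these genes after 6 days in DMSO, without the inhibitor. Between NGP DMSO and CHLA-20 DMSO, 34 of the 35 tested genes passed (97.1%), 15 higher and 19 lower in NGP, where 75.5% of all genes tested passed, 36.6% higher and 38.9% lower. At least 2-fold differences were found in 27 of these 34 genes, 11 higher and 16 lower in NGP. The median log2 difference was -0.59 over the 35 genes and -0.02 over all genes tested. Genes lower in NGP by more than 20-fold, beside S100A6, were LGALS3 (77.2-fold), TNC (77.1-fold), TPM2 (75.7-fold), ANXA2 (68.3-fold), NT5E (57.4-fold), LGALS1 (24.6-fold) and CD44 (22.8-fold). Genes higher in NGP by as much were PRRX1, CAV1, CAV2 and LOX. MMP2 differed little, by 0.12 ± 0.04 on the log2 scale (edgeR adjusted p = 0.00521), and not without CHLA-20 DMSO library 1 (0.0988). ACTA2 was the gene that missed the threshold (-0.41 ± 0.29, edgeR adjusted p = 0.198).

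With JSK591 in CHLA-20, 11 of the 35 tested mesenchymal genes rose and 12 fell, and 12 did not pass. Of all genes tested 39.4% passed in CHLA-20, 16.9% higher and 22.4% lower, against 65.7% of the 35. In NGP 8 rose, 4 fell and 23 did not pass, a share of 34.3% beside 36.2% of all genes tested, 16.8% higher and 19.4% lower. So the share in NGP was near that of all genes. The median log2 change was -0.05 in CHLA-20 and 0.10 in NGP, beside -0.02 and 0.0004 over all genes. The median in CHLA-20 was -0.09 over the 33 genes with more than 3 counts in 1 of its groups. Without NGP DMSO library 1, NGP DMSO library 2 or NGP JSK591 library 1, 4 genes were higher in NGP, and without NGP JSK591 library 2, 5 were. DESeq2 called 3 higher in NGP and edgeR with no filter on low counts called 4.

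Set side by side, 5 genes rose in each line (TNC, IGFBP3, MMP2, PLAUR and NT5E) and 3 fell in each (PRRX2, FN1 and CD44), out of 35. Over all genes tested, 5.72% rose in each line and 8.98% fell in each. TGFB1I1 fell in CHLA-20 and rose in NGP, and 4.3% of all genes were called in opposite directions. The difference between the lines' responses was tested with an interaction term, NGP minus CHLA-20. It passed for 12 of the 35 genes (34.3%), 7 positive and 5 negative, where 27.7% of all genes tested passed, 15.2% positive and 12.5% negative. With the trend on GC content removed, all genes split into 2397 positive and 2958 negative in place of 2950 and 2418, and the mesenchymal genes into 7 and 7. Without either NGP JSK591 library 4 genes were positive, and without CHLA-20 DMSO library 1, 3 were negative.

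**Figure D2:**
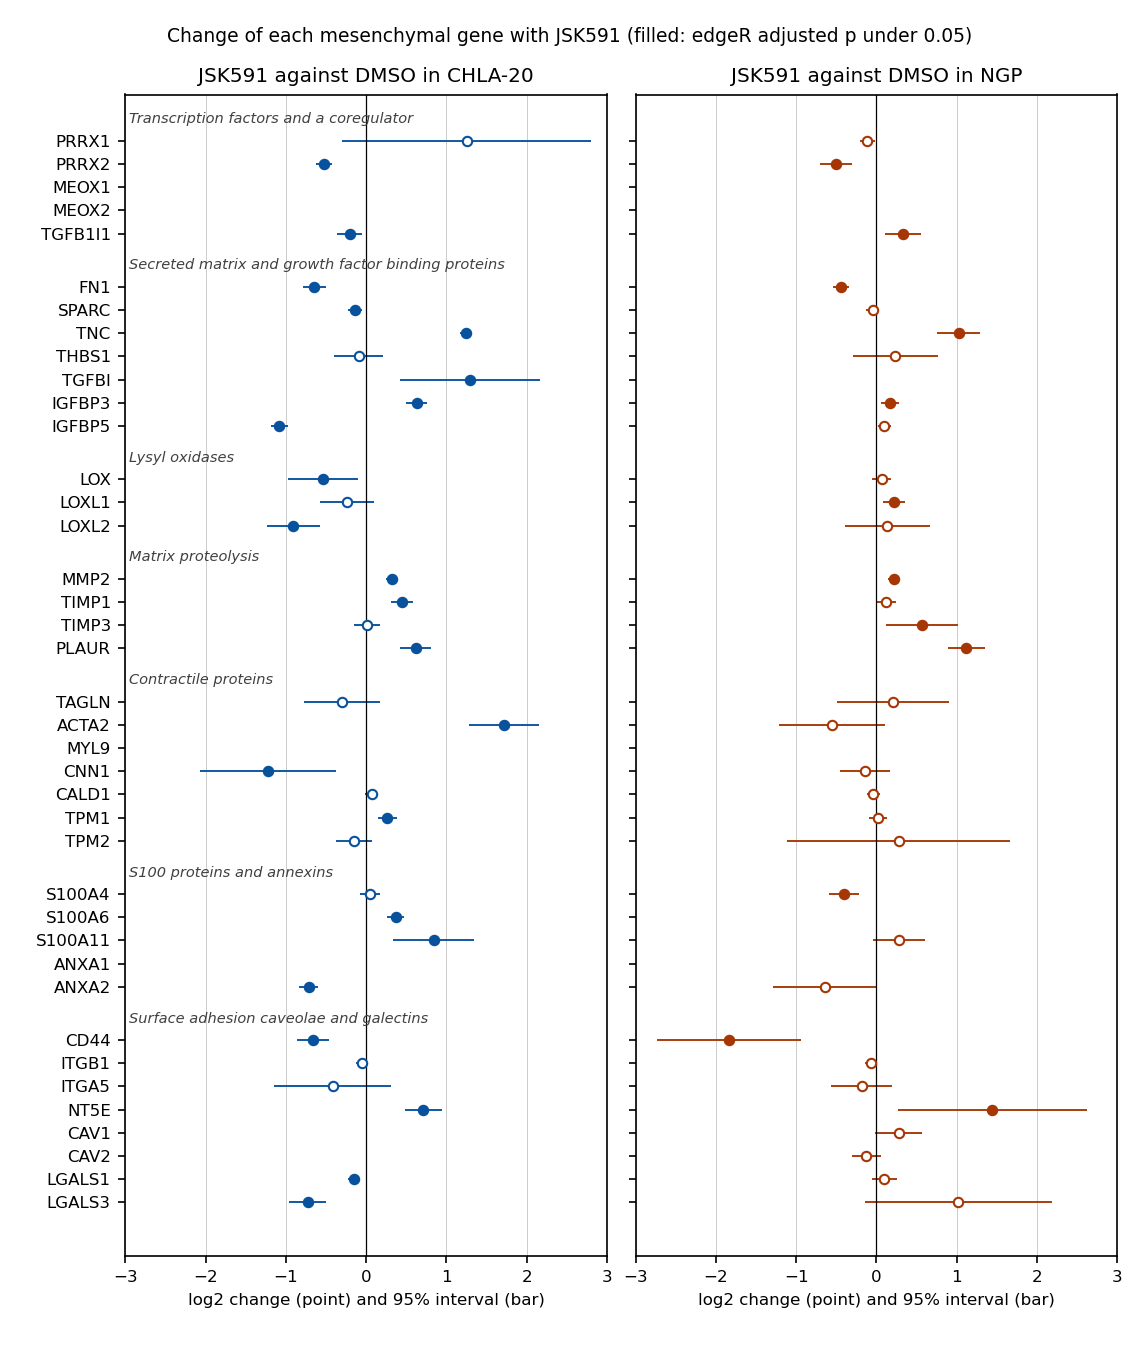
Log2 change of each tested gene with JSK591 in CHLA-20 (left) and NGP (right), with 95% intervals, filled where the edgeR adjusted p was under 0.05. Genes at or under 3 counts in both groups of a line, and the untested genes, have no point. TNC and PLAUR lie right of 0 in both panels, FN1, PRRX2 and CD44 left of 0 in both, and ACTA2 at 1.72 in CHLA-20.

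PRRX1 and PRRX2 are paired-related homeobox transcription factors active in embryonic mesenchyme, and CHLA-20 transcribed PRRX2 with almost no PRRX1 while NGP transcribed both. PRRX1 (chr1:170662728-170739419) had 3 and 1 counts (0.0888 and 0.0296 CPM) in the CHLA-20 DMSO libraries and 2 and 8 counts (0.0577 and 0.238 CPM) with JSK591. In NGP it stood at 90.4 and 90.8 CPM with DMSO and 83.9 and 83.6 CPM with JSK591. The NGP libraries all lay far above those of CHLA-20. Within NGP the JSK591 libraries were both below the DMSO libraries, and the log2 change of -0.11 ± 0.05 missed the threshold (edgeR adjusted p = 0.0547). It passed with DESeq2's size factors (0.0246), in a fit of the NGP groups alone (0.045) and without CHLA-20 DMSO library 2 (0.0184).

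PRRX2 (chr9:129665641-129722674) was high in CHLA-20, with 95.3 and 104 CPM in the DMSO libraries and 70.2 and 68.4 CPM with JSK591. In NGP it was at 8.17 and 10.2 CPM with DMSO and at 6.15 and 6.79 CPM with JSK591. The groups did not overlap in either line. PRRX2 fell by 0.52 ± 0.05 on the log2 scale in CHLA-20 (edgeR adjusted p = 1.97e-13) and by 0.50 ± 0.10 in NGP (4.73e-05), and its level in NGP DMSO was 10.8-fold lower than in CHLA-20 DMSO. Per kilobase of exon, PRRX2 in CHLA-20 DMSO (75.9 CPM) was above PRRX1 in NGP DMSO (10.99 CPM), where PRRX2 was at 7.001 CPM. The difference of the 2 responses was 0.02 ± 0.11 and turned to -0.30 (adjusted p = 0.0221) once the GC trend was removed.

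The mesoderm homeobox factors MEOX1 and MEOX2 were at or near 0 in every library, with at most 6 counts for MEOX1 and 8 for MEOX2, so a change was not detectable at this depth. TGFB1I1 encodes Hic-5, a focal adhesion protein that also acts as a nuclear receptor coactivator. It stood at 20.6 and 19.8 CPM in CHLA-20 DMSO and 17.9 and 17.1 CPM with JSK591, and at 5.63 and 5.78 CPM in NGP DMSO and 7.85 and 6.47 CPM with JSK591. The JSK591 libraries were lower in CHLA-20 and higher in NGP, with no overlap. TGFB1I1 fell by 0.20 ± 0.08 in CHLA-20 (edgeR adjusted p = 0.0306) and rose by 0.33 ± 0.11 in NGP (0.0159), and the difference of 0.53 ± 0.14 passed (0.00177). The fall of TGFB1I1 was lost without any 1 of 7 libraries (adjusted p 0.0589 to 0.2; it was kept without NGP JSK591 library 2), and under total count scaling, with no filter on low counts, with DESeq2 and with the GC trend removed. The rise was lost without NGP DMSO library 1 (0.123), NGP DMSO library 2 (0.0656) or NGP JSK591 library 1 (0.435), with DESeq2 (0.0708) and with no filter (0.0665), and the difference without NGP JSK591 library 1 (0.121).

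Of the 7 secreted genes, 3 rose and 3 fell in CHLA-20, and 2 rose and 1 fell in NGP. Called in either direction were 85.7% of the 7 in CHLA-20 and 42.9% in NGP, beside 39.4% and 36.2% of all genes tested. Tenascin-C, TNC (chr9:115019578-115118257), a large matrix glycoprotein of embryonic and wounded tissue, rose in both lines from very different levels. It was at 179 and 176 CPM in CHLA-20 DMSO and 423 and 421 CPM with JSK591, and at 2.30 and 2.31 CPM in NGP DMSO and 4.71 and 4.67 CPM with JSK591. Replicates lay close together and the groups far apart. The rise was 1.25 ± 0.04 in CHLA-20 (2.38-fold, edgeR adjusted p = 5.13e-36) and 1.03 ± 0.13 in NGP (2.04-fold, 3.97e-09), and the interval of the difference ran from -0.51 to 0.065 (adjusted p = 0.27).

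Fibronectin, FN1, the main fibrous glycoprotein that cells assemble through integrin alpha 5 beta 1, moved the other way. It was at 20.1 and 18.7 CPM in CHLA-20 DMSO and 12.3 and 12.5 CPM with JSK591, and at 83.9 and 81.0 CPM in NGP DMSO and 60.8 and 60.6 CPM with JSK591. Both JSK591 libraries lay below both DMSO libraries in each line. FN1 fell by 0.64 ± 0.07 in CHLA-20 (edgeR adjusted p = 3.35e-11) and by 0.44 ± 0.05 in NGP (1.91e-11). The difference of 0.20 ± 0.09 did not pass (0.0769), and did with the GC trend removed (0.25, adjusted p = 0.0167).

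The insulin-like growth factor binding proteins IGFBP3 and IGFBP5 parted in CHLA-20. IGFBP5 was at 52.9 and 55.3 CPM in CHLA-20 DMSO and 25.1 and 26.0 CPM with JSK591, and at 125 and 126 CPM in NGP DMSO and 137 and 131 CPM with JSK591. Its JSK591 libraries were below DMSO in CHLA-20 and above DMSO in NGP. IGFBP5 fell by 1.08 ± 0.05 in CHLA-20 (edgeR adjusted p = 1.61e-25), its value in NGP was 0.10 ± 0.04 (0.0521), and the difference of 1.18 ± 0.07 was called (1.05e-21). The value in NGP passed with libraries scaled to their totals (0.0195), with a stricter filter of 10 counts per library (0.0175), in a fit of the NGP groups alone (0.0456) and without NGP JSK591 library 2 (0.044).

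IGFBP3 was at 18.7 and 17.6 CPM in CHLA-20 DMSO and 29.005 and 27.2 CPM with JSK591, and at 33.1 and 33.7 CPM in NGP DMSO and 37.0 and 38.3 CPM with JSK591. The JSK591 libraries were the higher ones in each line. IGFBP3 rose by 0.63 ± 0.07 in CHLA-20 (edgeR adjusted p = 3.5e-12) and by 0.17 ± 0.06 in NGP (0.0158), and the smaller response of NGP was itself called (-0.46 ± 0.09, 3.24e-05). The rise in NGP was lost without any 1 of the 4 NGP libraries (adjusted p 0.064 to 0.172), with DESeq2 (0.118) and with no filter (0.053).

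SPARC, a collagen-binding matricellular protein, was at 84.3 and 82.4 CPM in CHLA-20 DMSO and 76.2 and 74.8 CPM with JSK591, and at 203, 217, 197 and 209 CPM in the NGP libraries in the same order. The groups were apart in CHLA-20 and overlapped in NGP. SPARC fell by 0.14 ± 0.04 in CHLA-20 (edgeR adjusted p = 0.00825), and not without CHLA-20 DMSO library 1 (0.0816), CHLA-20 DMSO library 2 (0.055) or CHLA-20 JSK591 library 2 (0.0953), nor with no filter (0.0547). In NGP its change of -0.05 ± 0.04 did not pass, and did without NGP DMSO library 1 (-0.12, 0.0358). TGFBI, a matrix protein induced by TGF-beta, had 10 and 12 counts in CHLA-20 DMSO and 23 and 32 with JSK591, and 2 or fewer in each NGP library. It rose by 1.298 ± 0.44 in CHLA-20 (0.0131), and not without CHLA-20 DMSO library 1 (0.112), CHLA-20 DMSO library 2 (0.0535) or CHLA-20 JSK591 library 2 (0.214). Thrombospondin, THBS1, ran from 3.67 to 4.18 CPM in CHLA-20 and from 0.839 to 1.13 CPM in NGP, and passed in neither line. Its JSK591 libraries were below DMSO in CHLA-20 (-0.09 ± 0.15, edgeR adjusted p = 0.669) and above DMSO in NGP (0.24 ± 0.26, 0.524).

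Lysyl oxidases crosslink collagen and elastin. All 3 differed between the DMSO groups of the lines, where 75.5% of all genes tested passed. LOX was at 1.39 and 2.28 CPM in CHLA-20 DMSO, 1.04 and 1.49 CPM with JSK591, and 44.9, 48.9, 49.98 and 48.3 CPM in the NGP libraries in the same order. LOXL1 was at 2.37, 2.76, 2.48 and 1.84 CPM in CHLA-20 and 24.3, 24.6, 28.04 and 28.8 CPM in NGP. LOX was 25.5-fold and LOXL1 9.53-fold higher in NGP DMSO than in CHLA-20 DMSO, while LOXL2 was 4.80-fold lower.

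LOXL2 was at 4.59 and 4.47 CPM in CHLA-20 DMSO and 2.34 and 2.50 CPM with JSK591, and at 0.954, 0.929, 1.01 and 1.06 CPM in NGP. The CHLA-20 groups were well apart, and the NGP libraries lay close together. LOXL2 fell by 0.91 ± 0.16 in CHLA-20 (edgeR adjusted p = 5.84e-06), and its difference between the lines was 1.04 ± 0.31 (0.00841). It shares 5.22% of its exonic bases with AC090197.1, which fell by 0.89 ± 0.27 in CHLA-20, and with ENTPD4. Without a stated strand setting, it is not known whether reads of the shared bases were set aside as ambiguous or given to a gene. LOX fell by 0.54 ± 0.22 (0.0404) although its CHLA-20 groups overlapped, and the call was lost without CHLA-20 DMSO library 2 (0.799), CHLA-20 JSK591 library 1 (0.421), NGP DMSO library 1 (0.0571), NGP DMSO library 2 (0.0577) or NGP JSK591 library 1 (0.0529), and with total count scaling (0.0578), no filter (0.229), DESeq2 (0.111) or a fit of the CHLA-20 groups alone (0.0947). The difference of LOX, 0.61 ± 0.23 (0.0355), was lost without CHLA-20 DMSO library 2 (0.741), CHLA-20 JSK591 library 1 (0.359), NGP DMSO library 1 (0.121) or NGP JSK591 library 1 (0.0852), and with DESeq2 (0.171) or no filter (0.223). LOXL1 rose by 0.22 ± 0.07 in NGP (0.0107), a call lost without any 1 of the 4 NGP libraries (0.0594 to 0.115), with DESeq2 (0.128) and with the GC trend removed (0.179). The difference of LOXL1, 0.46 ± 0.18 (0.0538), passed with a stricter filter (0.0449) and without CHLA-20 DMSO library 1 (0.0467) or CHLA-20 JSK591 library 1 (0.0185). Its exons overlap the antisense gene LOXL1-AS1 over 9.21% of their bases.

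Of the 4 genes of matrix proteolysis, 3 rose and none fell in each line, where 16.9% of all genes tested rose in CHLA-20 and 16.8% in NGP. The urokinase receptor PLAUR, which holds urokinase at the cell surface, was at 8.37 and 9.72 CPM in CHLA-20 DMSO and 13.5 and 14.2 CPM with JSK591. In NGP it was at 4.71 and 4.53 CPM with DMSO and 9.18 and 10.9 CPM with JSK591. The groups did not overlap in either line. PLAUR rose by 0.62 ± 0.10 in CHLA-20 (edgeR adjusted p = 2.48e-07) and by 1.12 ± 0.11 in NGP (2.7e-12). The larger response of NGP passed (difference 0.50 ± 0.15, 0.00801), and did not without CHLA-20 DMSO library 2 (0.128), NGP DMSO library 2 (0.0648) or NGP JSK591 library 2 (0.0937), nor with DESeq2 (0.065) or no filter (0.0612).

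MMP2 was at 159 and 164 CPM in CHLA-20 DMSO and 202 and 202 CPM with JSK591, and at 176 and 174 CPM in NGP DMSO and 201 and 205 CPM with JSK591. The JSK591 libraries were the higher ones in each line. MMP2 rose by 0.32 ± 0.04 in CHLA-20 (edgeR adjusted p = 1.35e-10) and by 0.21 ± 0.04 in NGP (4.5e-06). The difference of -0.11 ± 0.05 did not pass (0.122), and did with DESeq2's size factors (0.0499), with the GC trend removed (-0.24, 6.41e-05) and without CHLA-20 DMSO library 2 (0.0231), NGP DMSO library 1 (0.0372) or NGP DMSO library 2 (0.0393). TIMP1, a secreted inhibitor of metalloproteinases, was at 18.7 and 20.7 CPM in CHLA-20 DMSO, 26.9 and 26.8 CPM with JSK591, and 25.5, 27.0, 27.95 and 29.1 CPM in NGP. It rose by 0.45 ± 0.07 in CHLA-20 (1.02e-07), its value in NGP was 0.12 ± 0.06 (0.139), and the difference of -0.33 ± 0.09 passed (0.00468) but not without CHLA-20 DMSO library 1 (0.0596).

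TIMP3, the metalloproteinase inhibitor that stays bound to matrix, was at 17.1, 19.3, 17.8 and 18.9 CPM in CHLA-20 and at 0.954, 1.32, 1.47 and 1.91 CPM in NGP. The CHLA-20 groups overlapped, and the NGP JSK591 libraries were above DMSO. TIMP3 rose by 0.57 ± 0.22 in NGP (edgeR adjusted p = 0.0385), and not without NGP DMSO library 1 (0.387) or NGP JSK591 library 2 (0.34), nor with DESeq2 (0.0625), with no filter (0.158) or in a fit of the NGP groups alone (0.057). The difference of 0.56 ± 0.24 (0.0731) passed without CHLA-20 DMSO library 1 (0.0411). A stretch upstream of its start is printed further on, with that of ACTA2.

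The contractile genes shared no direction in CHLA-20, where 2 rose and 1 fell of 6 tested, and 39.4% of all genes tested passed. In NGP none of the 6 passed by edgeR or DESeq2, while 36.2% of all genes tested passed by edgeR. There 0 of the 6 had an unadjusted p under 0.05 in edgeR. Smooth muscle actin, ACTA2 (chr10:88935074-88991339), the filament of myofibroblasts, was at 1.302 and 0.919 CPM in CHLA-20 DMSO and 4.04 and 3.27 CPM with JSK591. In NGP it was at 0.745 and 0.929 CPM with DMSO and 0.491 and 0.647 CPM with JSK591. The CHLA-20 JSK591 libraries, with 140 and 110 counts, stood above the other 6, which had 17 to 44. ACTA2 rose by 1.72 ± 0.22 in CHLA-20 (3.29-fold, edgeR adjusted p = 1.57e-09). Its value in NGP was -0.56 ± 0.33 (0.197), and the difference of -2.27 ± 0.40 passed (8.27e-06). ACTA2 shares 30.1% of its exonic bases with ACTA2-AS1 and with FAS, a death receptor gene that rose by 0.99 ± 0.25 in CHLA-20 (77 counts with DMSO and 155 with JSK591, 0.00106). Whether reads of the shared bases were set aside as ambiguous or given to a gene is not stated.

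Of the other contractile genes, TPM1 rose and CNN1 fell in CHLA-20. Calponin, CNN1, had 26 and 16 counts in CHLA-20 DMSO and 8 and 10 with JSK591, and 129, 180, 148 and 140 counts in NGP. It fell by 1.23 ± 0.42 in CHLA-20 (edgeR adjusted p = 0.0161), and not without CHLA-20 DMSO library 1 (0.24) or CHLA-20 JSK591 library 1 (0.121), nor with no filter (0.0897). Its difference of 1.09 ± 0.45 (0.0655) passed without CHLA-20 DMSO library 2 (0.0319) or NGP DMSO library 2 (0.0255). Tropomyosin 1, TPM1, was at 28.7 and 29.2 CPM in CHLA-20 DMSO, 35.3 and 34.2 CPM with JSK591, and 39.04 to 40.9 CPM in NGP. It rose by 0.26 ± 0.06 in CHLA-20 (0.000149). The difference of -0.25 ± 0.08 (0.0151) was lost without CHLA-20 DMSO library 1 (0.0528), CHLA-20 JSK591 library 1 (0.0687) or NGP JSK591 library 2 (0.08), and TPM1 shares 21.4% of its exonic bases with 2 antisense genes.

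Transgelin, TAGLN, an actin-binding protein of smooth muscle, ran from 1.39 to 2.04 CPM in CHLA-20 and from 0.537 to 0.722 CPM in NGP, and passed in neither line. TAGLN shares 11.4% of its exonic bases with the more abundant PCSK7. PCSK7 rose by 0.36 ± 0.08 in CHLA-20 (edgeR adjusted p = 8.44e-05), from a mean of 14.5 CPM with DMSO to 18.65 CPM with JSK591. Tropomyosin 2, TPM2, ran from 7.94 to 9.75 CPM in CHLA-20 and was at 0.235 CPM or less in NGP, a 75.7-fold difference between the DMSO groups. Caldesmon, CALD1, was abundant, at 162 to 178 CPM in CHLA-20 and 107 to 112 CPM in NGP. Its value in CHLA-20, 0.07 ± 0.04 (edgeR adjusted p = 0.174), passed without CHLA-20 DMSO library 2 (0.0285), NGP DMSO library 1 (0.0414), NGP DMSO library 2 (0.0419) or NGP JSK591 library 1 (0.0452) and in a fit of the CHLA-20 groups alone (0.0464), and its difference between the lines without CHLA-20 DMSO library 2 (-0.19, 0.0191) or NGP DMSO library 2 (-0.17, 0.0438). The myosin light chain MYL9 had 3 counts in NGP DMSO library 2 and 0 in the other libraries.

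Because ACTA2 moved the most among the members with JSK591 in CHLA-20, the stretches upstream of its start and of TIMP3 are shown. Serum response factor binds the CArG box, a known element of contractile gene promoters. Both are RefSeq promoters on GRCh38.p14, and capitals mark CArG boxes with 1 of the 6 inner bases changed to C or G, a form searched after the values were seen. ACTA2 (the downstream of 2 starts) covers chr10:88952774-88952923 on the minus strand, bases -150 to -1 from the start, and TIMP3 covers chr22:32801505-32801604 on the plus strand, bases -200 to -101.
ACTA2: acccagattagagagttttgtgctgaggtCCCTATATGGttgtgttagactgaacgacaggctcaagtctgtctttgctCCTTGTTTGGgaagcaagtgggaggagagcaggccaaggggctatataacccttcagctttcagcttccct
TIMP3: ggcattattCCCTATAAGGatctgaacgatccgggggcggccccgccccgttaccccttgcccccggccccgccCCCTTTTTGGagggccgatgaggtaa
Each stretch holds 2 such matches. ACTA2 rose in CHLA-20 and did not pass in NGP, and TIMP3 did not pass in CHLA-20 and rose in NGP.

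33 of the 39 genes matched the promoter table, all but MEOX1, LOXL2, MMP2, TAGLN, MYL9 and LGALS1. On both strands over 250 bases before to 50 after each start, the exact CArG box was found in 1 of the 33, TGFB1I1 (3.03%), beside 1.29% of 35116 promoters, and the changed form in 5 (15.2%, beside 6.94%): TGFB1I1, TNC, TIMP3, ACTA2 and CALD1. A gene with several starts was counted once for all of them, which raises its chance of a match over that of a single promoter. The 2 forms exclude each other base for base. The absence of a match says only that these letters are not in this window.

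S100 proteins are small calcium sensors that bind annexins and cytoskeletal proteins, and S100A6 was read almost solely in CHLA-20. S100A6 had 1622 and 1810 counts (48.0 and 53.6 CPM) in CHLA-20 DMSO and 65.4 and 65.9 CPM with JSK591. In NGP there were 0 counts in 3 libraries and 1 count in JSK591 library 2. S100A6 was at least 1133-fold lower in NGP DMSO than in CHLA-20 DMSO, taking a floor of 3 counts over the group. It rose by 0.37 ± 0.05 in CHLA-20 (edgeR adjusted p = 7.11e-08).

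S100A4, a protein tied to motility and used as a fibroblast marker, was at 31.6, 30.0, 31.1 and 32.4 CPM in CHLA-20 and at 9.60, 10.4, 7.22 and 7.85 CPM in NGP. The CHLA-20 groups overlapped, while in NGP both JSK591 libraries were below DMSO. S100A4 fell by 0.41 ± 0.09 in NGP (edgeR adjusted p = 0.00035) and not in CHLA-20 (0.04 ± 0.06), and the difference of -0.45 ± 0.11 passed (0.00138). S100A11 ran opposite to its relatives between lines, at 0.917 and 0.859 CPM in CHLA-20 DMSO, 1.93 and 1.25 CPM with JSK591, and 3.31 to 4.38 CPM in NGP. Its rise in CHLA-20, 0.84 ± 0.25 (0.00539), was lost without CHLA-20 JSK591 library 1 (0.252).

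Annexin A2, ANXA2, a membrane-bound partner of S100 proteins, was at 54.2 and 52.4 CPM in CHLA-20 DMSO, 32.1 and 32.8 CPM with JSK591, and 0.954, 0.599, 0.635 and 0.353 CPM in NGP. The CHLA-20 groups were far apart, and those of NGP overlapped. ANXA2 fell by 0.72 ± 0.06 in CHLA-20 (edgeR adjusted p = 1.4e-15). Its value in NGP, -0.65 ± 0.32 (0.109), passed without NGP DMSO library 2 (0.0401) or NGP JSK591 library 1 (0.0343), and the DMSO levels of the lines differed 68.3-fold. The processed copy ANXA2P2 had 2099 counts in CHLA-20 DMSO and 1322 with JSK591, and fell by 0.68 ± 0.07, so the authors' counting may have split reads between them and the level of ANXA2 is uncertain. ANXA1 had at most 8 counts in a group.

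ANXA2 was 1 of 4 matched genes whose promoter holds the AP-1 site TGANTCA (with PLAUR, CALD1 and ITGA5; 12.1% of the 33, beside 7.71% of promoters), searched on both strands. It is shown as the strongly lowered gene among them, from RefSeq on GRCh38.p14, chr15:60398046-60398136, minus strand, bases -150 to -60 from the start, with the AP-1 match in capitals.
ANXA2: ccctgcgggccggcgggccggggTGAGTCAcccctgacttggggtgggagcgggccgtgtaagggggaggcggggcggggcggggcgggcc
The match does not overlap another motif searched. As for the CArG box, a gene with several starts was counted once for all of them in these shares. PLAUR, with the same element, rose in both lines, while CALD1 and ITGA5 passed in neither.

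Among the surface genes, CD44, the hyaluronan receptor used to mark mesenchymal neuroblastoma cells, was lower with JSK591 in both lines. It was at 13.5 and 13.3 CPM in CHLA-20 DMSO and 7.99 and 8.86 CPM with JSK591. NGP had 21 and 18 counts with DMSO (0.626 and 0.539 CPM) and 4 and 7 counts with JSK591 (0.115 and 0.206 CPM). The groups did not overlap. CD44 fell by 0.67 ± 0.10 in CHLA-20 (edgeR adjusted p = 1.05e-07) and by 1.84 ± 0.45 in NGP (0.000698). The difference, -1.17 ± 0.47, did not pass (0.054), and did with DESeq2's size factors (0.0478) and without CHLA-20 JSK591 library 1 (0.047).

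NT5E, the ecto-enzyme CD73 of mesenchymal stromal cells, moved opposite to CD44. It was at 6.66 and 5.78 CPM in CHLA-20 DMSO and 10.5 and 9.87 CPM with JSK591, and NGP had 3 and 4 counts with DMSO and 10 and 10 with JSK591. NT5E rose by 0.71 ± 0.11 in CHLA-20 (edgeR adjusted p = 4.55e-07) and by 1.45 ± 0.59 in NGP (0.0479). The call in NGP was lost without any 1 of the 4 NGP libraries (0.104 to 0.208), without CHLA-20 JSK591 library 2 (0.0508) with DESeq2's size factors (0.0502) and test (0.0734), and with no filter (0.113).

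The galectins bind surface sugars. LGALS1, secreted by stromal cells, was at 284 and 283 CPM in CHLA-20 DMSO, 259 and 254 CPM with JSK591, and 10.97, 12.1, 12.5 and 12.2 CPM in NGP. LGALS3 was at 10.8 and 10.5 CPM, 6.41 and 6.48 CPM, and 0.323 CPM or less in NGP, where DMSO library 2 had 1 count. Both JSK591 libraries lay below DMSO in CHLA-20 for each galectin. LGALS1 fell by 0.15 ± 0.04 (edgeR adjusted p = 0.00111), a call lost with the GC trend removed (0.637), and LGALS3 by 0.73 ± 0.12 (4.8e-07). The differences between lines were 0.25 ± 0.09 for LGALS1 (0.024) and 1.75 ± 0.59 for LGALS3 (0.0209). That of LGALS1 was lost without CHLA-20 DMSO library 2 (0.103), CHLA-20 JSK591 library 2 (0.0746), NGP DMSO library 1 (0.43), NGP JSK591 library 1 (0.229) or NGP JSK591 library 2 (0.05), and that of LGALS3 without NGP DMSO library 2 (0.90, 0.301) or NGP JSK591 library 2 (0.157). Both were also lost with no filter (0.0697 and 0.108), and that of LGALS1 with the GC trend removed (0.641) and with DESeq2 (0.0587). Without NGP DMSO library 1, LGALS3 was higher with JSK591 in NGP (3.04, 0.0158).

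The integrin chains did not pass with JSK591 in either line. ITGB1 ran from 243 to 256 CPM in CHLA-20 and from 171 to 183 CPM in NGP, with both JSK591 libraries below DMSO in each line (-0.05 ± 0.04, edgeR adjusted p = 0.317, and -0.06 ± 0.04, 0.193), and its fibronectin partner ITGA5 from 0.416 to 0.681 CPM and from 2.43 to 3.70 CPM. With the GC trend removed ITGB1 was lower with JSK591 in CHLA-20 (-0.10, edgeR adjusted p = 0.00826).

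The caveolins CAV1 and CAV2, which coat the membrane pits called caveolae, were read almost solely in NGP. CAV1 was at 4.29 and 4.47 CPM in NGP DMSO and 5.37 and 5.23 CPM with JSK591, and CAV2 at 16.0, 15.8, 13.9 and 15.3 CPM. CHLA-20 had 1 count of CAV1 and 2 of CAV2 in each group. The ratio of NGP DMSO to CHLA-20 DMSO was 296-fold for CAV1 (95% counting interval 52.7 to 11720) and 538-fold for CAV2 (149 to 4448). In NGP the change was 0.28 ± 0.15 for CAV1 (edgeR adjusted p = 0.135) and -0.13 ± 0.09 for CAV2 (0.276).

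CAV2 and CAV1 lie 16243 bases apart on chromosome 7, between TES and MET. TES, a focal adhesion protein, showed the reverse pattern, with 41.8 ± 4.1 CPM (SD, n = 2) in CHLA-20 DMSO and 0.448 ± 0.083 CPM in NGP DMSO, a log2 difference of -6.53 ± 0.13. MET, a growth factor receptor, was at 7.48 ± 0.94 and 2.68 ± 0.12 CPM, and CAPZA2, an actin capping subunit beyond it, at 61.0 ± 1.3 and 51.9 ± 3.4 CPM. S100A6 and S100A4 lie 7368 bases apart on chromosome 1, and S100A4 was read in both lines while S100A6 was not. S100A3 was at 1.20 ± 0.022 CPM in CHLA-20 DMSO and 0.672 ± 0.061 CPM in NGP DMSO, and S100A2 at 0.859 ± 0.083 and 1.12 ± 0.14 CPM. These neighbours were chosen after the members' values were seen.

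**Figure D3:**
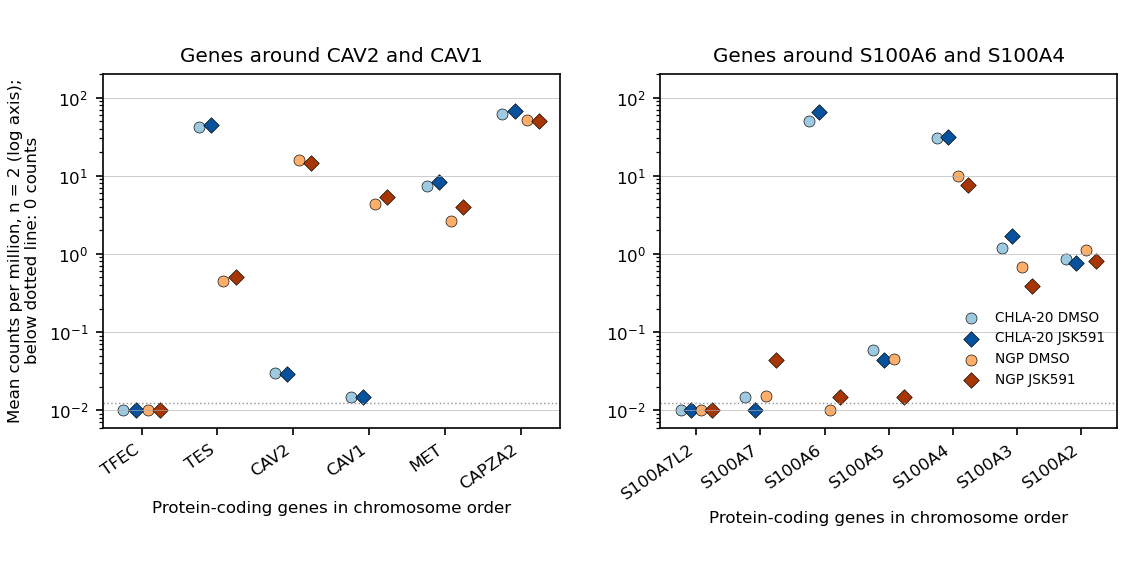
Mean CPM (log axis, 2 libraries each) of the protein-coding genes around CAV2 and CAV1 (left) and around S100A6 and S100A4 (right), in chromosome order, with circles for DMSO and diamonds for JSK591. TES is high in CHLA-20 and CAV2 and CAV1 in NGP. S100A6 is high in CHLA-20 and at or near 0 in NGP, while S100A4 is present in both.

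Other genes of the same programmes were taken from lists and set beside the members. Of 31 tested other mesenchymal transcription factors, 2 rose and 11 fell in CHLA-20 (median log2 change -0.19), and 5 rose and 8 fell in NGP (-0.14), beside medians of -0.02 and 0.0004 over all genes, of which 16.9% rose and 22.4% fell in CHLA-20 and 16.8% rose and 19.4% fell in NGP. The inhibitor of differentiation ID1 fell in both, by 0.82 ± 0.05 in CHLA-20 (edgeR adjusted p = 1.63e-22) and by 1.05 ± 0.04 in NGP (4.53e-30). In CHLA-20 CBFB rose by 0.13 ± 0.05 and BHLHE41 fell by 1.95 ± 0.54. In NGP the AP-1 factor FOSL2 rose by 0.69 ± 0.08 and the RNA-binding ZFP36L1 by 0.65 ± 0.16, and EGR3 fell by 1.49 ± 0.30.

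Of 22 genes of TGF-beta signalling, 2 rose and 9 fell in CHLA-20 (median -0.03), and 4 rose and 6 fell in NGP (-0.0033). Called in either direction were 50% in CHLA-20 and 45.5% in NGP, beside 39.4% and 36.2% of all genes tested. The ligand TGFB1 fell by 1.10 ± 0.21 and its latent binding protein LTBP1 by 1.09 ± 0.15 in CHLA-20, where INHBA, an activin subunit, rose by 1.89 ± 0.47. BAMBI, a decoy receptor, rose in CHLA-20 by 0.64 ± 0.11 and fell in NGP by 0.70 ± 0.08. In NGP the inhibitor SMAD7 fell by 0.85 ± 0.05, while the repressor SKI rose by 0.38 ± 0.05 and the receptor TGFBR1 by 0.22 ± 0.06.

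Of 27 tested genes for cofactors of serum response factor and the actin cytoskeleton, 6 rose and 14 fell in CHLA-20 (median -0.10). In NGP 3 rose and 12 fell (-0.06). Called in either direction were 74.1% in CHLA-20 and 55.6% in NGP, beside 39.4% and 36.2% of all genes tested. CNN2, a calponin, fell in both lines, by 0.94 ± 0.06 in CHLA-20 and by 0.52 ± 0.08 in NGP. PDLIM7 fell by 0.77 ± 0.06 in CHLA-20 and beta-actin, ACTB, by 0.47 ± 0.04 in NGP. TPM3 (0.23 ± 0.04) and the cofactor MRTFB (0.22 ± 0.06) rose in CHLA-20, and MYH9 (0.22 ± 0.04) and FLNC (0.17 ± 0.04) in NGP. The cofactor myocardin, MYOCD, was at 0.104 CPM or less in every group.

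Of 21 tested adrenergic genes, 9 rose and 8 fell in CHLA-20 (median 0.06), and 8 rose and 7 fell in NGP (0.12). RET, a growth factor receptor, rose by 1.04 ± 0.04 in CHLA-20 and by 0.66 ± 0.09 in NGP. In CHLA-20 the vesicle transporter SLC18A1 rose by 0.69 ± 0.17 while SLC18A2 fell by 0.91 ± 0.24 and HAND2 by 0.55 ± 0.04. In NGP HAND1 fell by 0.45 ± 0.04 and GATA3 by 0.36 ± 0.04. Adrenergic genes thus had members in each direction in both lines, as the mesenchymal genes and all genes tested did. The share called in either direction was 81% in CHLA-20 and 71.4% in NGP. It was 65.7% and 34.3% for the mesenchymal genes, and 39.4% and 36.2% for all genes tested.

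**Figure D4:**
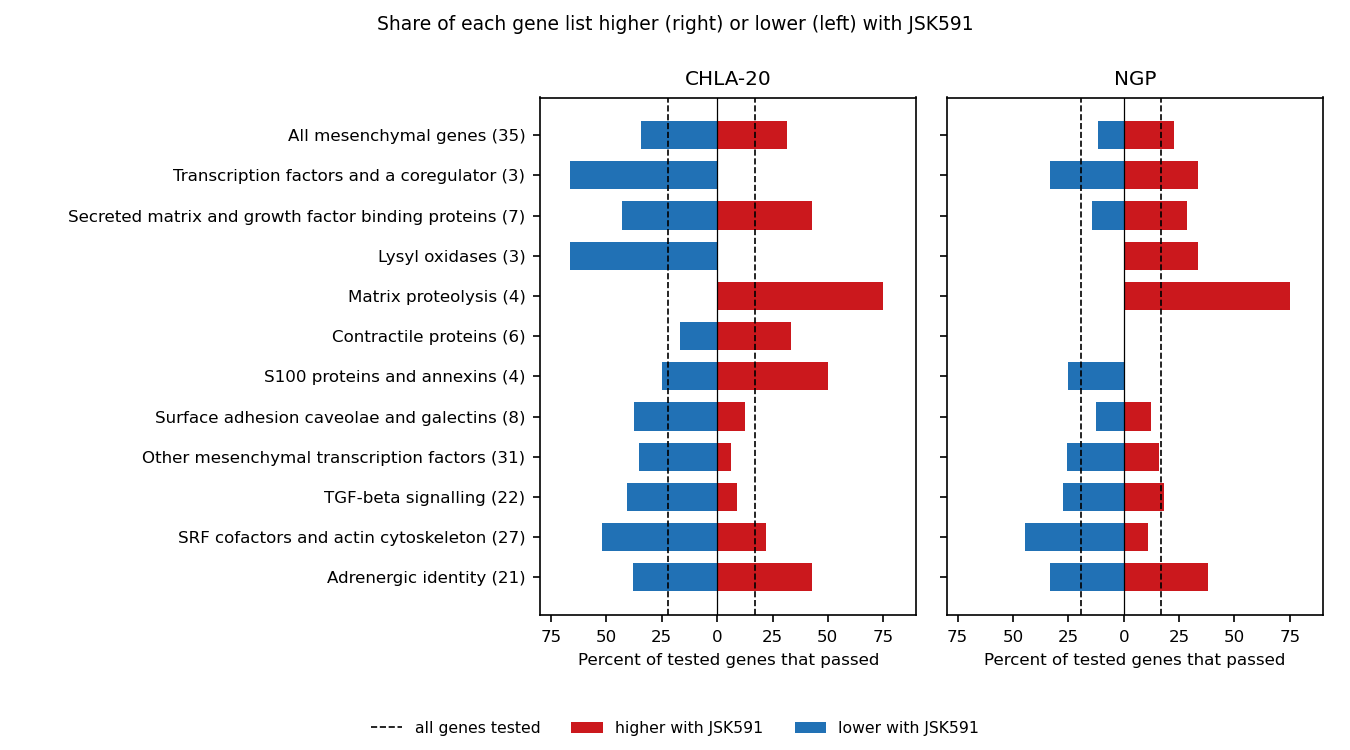
Percent of the tested genes of each list that were higher (right, red) or lower (left, blue) with JSK591 at an edgeR adjusted p under 0.05, in CHLA-20 and NGP. The number of tested genes is in brackets, and dashed lines mark the shares over all genes tested, 16.9% and 22.4% in CHLA-20 and 16.8% and 19.4% in NGP.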

How the data were processed

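RNA of 8 libraries (2 cell lines, DMSO or JSK591, 2 each) was analysed from raw counts per gene, 1 table a library, which the authors deposited. STAR, HTSeq and DESeq2, and GRCh38 (hg38), are named in the submitters' processing notes, with no role or version. The annotation and strand setting are not given in the sources used here. All 58721 gene identifiers with versions were in GENCODE 29, which gave symbols and positions. The 5 rows that name no gene were left out. As a percent of all counts in a file, no feature was 5.15 to 6.86, ambiguous 6.77 to 7.18 and not uniquely aligned 19.2 to 22.0.

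Counts were fitted with edgeR 4.0.16 (R 4.3.3, limma 3.58.1) in 1 quasi-likelihood model of the 4 groups, with TMM scaling, filterByExpr (19395 genes), 4 residual degrees of freedom and Benjamini-Hochberg adjustment over all genes. Tests and intervals also borrowed spread from other genes, so they rest on more than the 4 residual degrees of freedom of each gene. The comparisons were JSK591 against DMSO in each line, their difference, and NGP DMSO against CHLA-20 DMSO. Before use, the fit was run on counts simulated with known changes. They were drawn from the CHLA-20 DMSO profile with a common dispersion and no difference between lines, unlike these data. Alternatives were DESeq2 1.42.0 (test, or size factors alone), total count scaling, other filters, only the groups compared, replicate blocks, removal of the trend on transcript GC content, and leaving out each library. Counts of 3 or fewer in a group gave a floor or an exact 95% counting interval, which cover counting error only.

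Members passing in a line or in the difference, and those that define the label, are given per library. Context genes named are the largest rises and falls, up to 2 each way, that passed. Some of these are not reported here. The members, lists and tests were chosen with earlier results of these data known. The main model did not treat libraries as paired by replicate number.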

Additional observations from a re-analysis of the deposited data

Results flagged for a closer look

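12 of the 35 tested genes responded to JSK591 differently in the 2 lines by a test of the difference itself, an interaction term in edgeR's quasi-likelihood model with Benjamini-Hochberg adjustment, where 27.7% of all genes tested passed. Values are log2 changes in NGP minus those in CHLA-20. Positive differences were found for the galectin LGALS3 (1.75 ± 0.59, adjusted p = 0.0209), IGFBP5 (1.18 ± 0.07, 1.05e-21), LOXL2 (1.04 ± 0.31, 0.00841), LOX (0.61 ± 0.23, 0.0355), TGFB1I1 (0.53 ± 0.14, 0.00177), PLAUR (0.50 ± 0.15, 0.00801) and LGALS1 (0.25 ± 0.09, 0.024). Negative differences were found for ACTA2 (-2.27 ± 0.40, 8.27e-06), IGFBP3 (-0.46 ± 0.09, 3.24e-05), S100A4 (-0.45 ± 0.11, 0.00138), TIMP1 (-0.33 ± 0.09, 0.00468) and TPM1 (-0.25 ± 0.08, 0.0151). IGFBP5, LOXL2, ACTA2, IGFBP3 and S100A4 passed under every alternative run, and the other 7 did not. PLAUR and IGFBP3 rose in each line and differed in size, and TGFB1I1 was the gene called in opposite directions. The groups held 2 libraries each, too few to look for a library far from the others.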

How the results depend on the processing

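Of 2293 values of single members recomputed under alternatives, 2168 kept their side of the threshold, 90 lost a call and 34 gained one. Values that passed in neither setting could differ in direction and still count among the 2168. A change of direction with a call was found for 1 value: the difference for PRRX2 was 0.02 in the main setting and -0.30 (adjusted p = 0.0221) with the GC trend removed. Under every alternative that tested them, 16 of 23 calls in CHLA-20, 7 of 12 in NGP, 5 of 12 differences and 33 of 34 between the lines were kept; MMP2 was lost between the lines without CHLA-20 DMSO replicate 1 (0.09, adjusted p = 0.0988).

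Genes of the set higher in NGP (8) came to 4 with no filter on low counts, 3 with DESeq2 and 4 to 8 leaving out a library. Positive differences (7) came to 3 with no filter, 4 with DESeq2 and 4 to 9 leaving out a library, and negative ones (5) to 3 to 7. Over all genes, DESeq2 called 2078 higher in NGP in place of 3266, and 1851 positive differences in place of 2950. The cause was not tested, except that with no filter 41357 genes entered the adjustment. Scaling moved the median of all genes by under 0.1 on the log2 scale.

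No pairing of the libraries by replicate number was detected (correlations of deviations -0.027 to 0.012), which does not show that they are unpaired. A replicate block within each line gave 8 genes higher in NGP, as without it, and moved 1 member call, ACTA2 between the lines (-0.76, adjusted p = 0.0451). Depth limited MEOX1, MEOX2, MYL9 and ANXA1, and TGFBI, S100A6, CAV1 and CAV2 in the line that lacks them. With 2 libraries a group, a call that missed the threshold does not show equal levels.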

Other observations

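Other short elements in the promoters of the 33 matched genes were counted in the same RefSeq table, on both strands. A gene with several starts was again counted once for all of them, which raises its chance of a match over that of a single promoter. The TEAD site GGAATG was found in 7 of the 33 (21.2%, beside 14% of 35116 promoters): SPARC, THBS1, IGFBP5, ACTA2, CALD1, ITGB1 and ITGA5. The TATA box TATAAA was found in 6 (18.2%, beside 11.5%): MEOX2, CALD1, S100A4, ANXA1, ANXA2 and ITGB1. In ANXA2, ANXA1 and S100A4 it lay at bases -31 to -26 from the start. With JSK591 in CHLA-20, SPARC and IGFBP5 fell, ACTA2 rose, and THBS1, CALD1, ITGB1 and ITGA5 did not pass.

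The summed level of the 39 genes was 1598 and 1615 CPM in CHLA-20 DMSO and 1810 and 1798 CPM in CHLA-20 JSK591. It was 1219 and 1236 CPM in NGP DMSO and 1227 and 1244 CPM in NGP JSK591. TNC alone went from a mean of 178 CPM in CHLA-20 DMSO to 422 CPM in CHLA-20 JSK591, more than the sum rose. Of the 35 tested genes, 11 rose and 12 fell in CHLA-20, beside 16.9% and 22.4% of all genes tested. In CHLA-20 DMSO 64.9% of that sum came from LGALS1, ITGB1, TNC, CALD1 and MMP2, and in CHLA-20 JSK591 the same 5 genes, now led by TNC, gave 72.1%. SRF itself was at 48.3 CPM in CHLA-20 DMSO and 49.5 CPM with JSK591, and at 114 and 97.6 CPM in NGP.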
